A study of Mus musculus with 24 samples.

Results

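The 10 genes described here encode proteins of the regulated secretory granule, out of 28059 genes in the table. They were taken by NCBI Gene number, and the rule uses no measured level, but the group was chosen with earlier results of these data known. The group holds the granins Chga, Chgb, Scg2 and Scg3, the granin-like precursors and chaperones Scg5, Vgf and Pcsk1n, and the granule membrane proteins Ptprn, Ptprn2 and Slc30a8. RNA of hand-picked mouse islets was sequenced at an age of 3 to 4 months, on a mixed background, in 2 sets of libraries told apart by their sample numbers. In set 1, the Etv1/4/5 group (4 libraries) had floxed Cop1, Etv1 and Etv5 alleles (Cop1fl/fl, Etv1fl/fl and Etv5fl/fl) with Etv4ko/ko and Pdx1.CreERT2, the Cop1 deletion group (3 libraries) was Cop1 fl/fl; Pdx1.CreERT2, and the control group (3 libraries) was Cop1 fl/fl without Cre. In set 2, the Etv4/5 group (4 libraries) had Cop1fl/fl and Etv5fl/fl with Etv4ko/+ and Pdx1.CreERT2 and so kept an intact Etv4 allele, and the Cop1 deletion and control groups (4 libraries each) had the genotypes named for set 1. All groups, controls included, carried floxed Cop1, and the controls lacked the Cre transgene by their labels, so Cop1 loss and presence of Cre cannot be told apart in Cop1 deletion against control. COP1 is a ubiquitin ligase that targets the ETS-family factors ETV1, ETV4 and ETV5 for degradation, and the design asks what its loss does in islets and what remains of this when Etv genes are deleted too. The Pdx1 promoter is active in β cells and, within islets, also in some δ cells, so whole-islet RNA mixes recombined and other cells.

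Granins are acidic proteins that endocrine cells pack into dense-core granules with their hormones. They aggregate at the low pH and high calcium of the trans-Golgi and are cut by prohormone convertases into peptides. Ptprn and Ptprn2 (IA-2 and phogrin) are catalytically inactive relatives of receptor tyrosine phosphatases that span the granule membrane, and Slc30a8 (ZnT8) carries zinc into insulin granules, where insulin crystallizes with it. Both IA-2 and ZnT8 are targets of autoantibodies in human type 1 diabetes.

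Levels are RPKM, reads per kilobase of gene scaled to the mapped reads of the library, so levels can be set beside each other between genes. Summed RPKM was 524289 to 682560 per library, and the read number itself is unknown. Depth read from the steps of low values, relative to the deepest library, ranged between 0.331 and 0.526 in set 1 libraries and between 0.758 and 1 in set 2 libraries. Rank correlations between libraries had a median of 0.988 within groups and 0.900 between sets, so levels are tested within a set only. Replicates are individual libraries, and their relation to mice is not given, so p-values measure the spread between these samples. Groups that do not overlap are described as such, without a test. The smallest p an exact permutation test can give is 0.1 for 3 against 3 libraries and 0.0286 for 4 against 4. Cop1 was 0.719 to 1.04 RPKM in Etv1/4/5, 0.984 to 1.13 RPKM in Cop1 deletion and 1.22 to 1.55 RPKM in control libraries of set 1, and 0.770 to 0.856, 0.763 to 0.934 and 1.43 to 1.87 RPKM in the Etv4/5, Cop1 deletion and control libraries of set 2, with no overlap between control and the other groups. Etv4 went against the set 1 label, at 1.26 ± 0.298 RPKM in Etv1/4/5, 0.0646 ± 0.0115 RPKM in Cop1 deletion and 0.0728 ± 0.0397 RPKM in control libraries (SD), and Etv1 averaged 5.30 ± 0.305 RPKM in Etv1/4/5 against 4.72 ± 0.426 RPKM in Cop1 deletion libraries. Values per gene do not show whether a floxed exon is gone, so "Etv1/4/5" and "Etv4/5" stand for the labels throughout. Set 1 control replicate 2 held Esr1 (the receptor whose hormone-binding domain is part of CreERT2) at 99.1 RPKM, as high as the Cre libraries and unlike the other set 1 controls (0.169 and 0.191 RPKM). Set 2 control replicate 4 had a median rank correlation of 0.955 with its group, against 0.990 to 0.992 for the other set 2 controls and 0.953 to 0.974 for the set 2 Cop1 deletion libraries. Values or calls without these 2 libraries are given beside the results that rest on them.

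After Cop1 deletion, the RNAs of chromogranin B and secretogranin II were higher and that of the zinc transporter ZnT8 was lower. Over both sets, Cop1 deletion minus control, Chgb rose 2.54-fold with a log2 change of 1.35 (SE 0.08, adjusted p = 2.76e-09), and Scg2 rose 1.47-fold, by 0.56 (SE 0.08, adjusted p = 6.73e-05) on the log2 scale. Slc30a8 changed by -1.10 (SE 0.17, adjusted p = 0.000167). A gene is called at an adjusted p below 0.05 in limma, with Benjamini-Hochberg adjustment over the 14342 genes tested, and log2 fold changes are differences of log2(RPKM + 0.5). All 10 members passed the filter on low values. In the comparison over both sets 7 of the 10 were called, 4 higher (Chgb, Scg2, Scg5 and Ptprn) and 3 lower (Chga, Vgf and Slc30a8), against 20.1% of all genes called (9.57% higher and 10.5% lower). The median change of the members was -0.02 on the log2 scale, beside -0.02 for all genes tested. In bulk RNA, fewer cells of a type and less RNA per cell cannot be told apart.

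**Figure D1:**
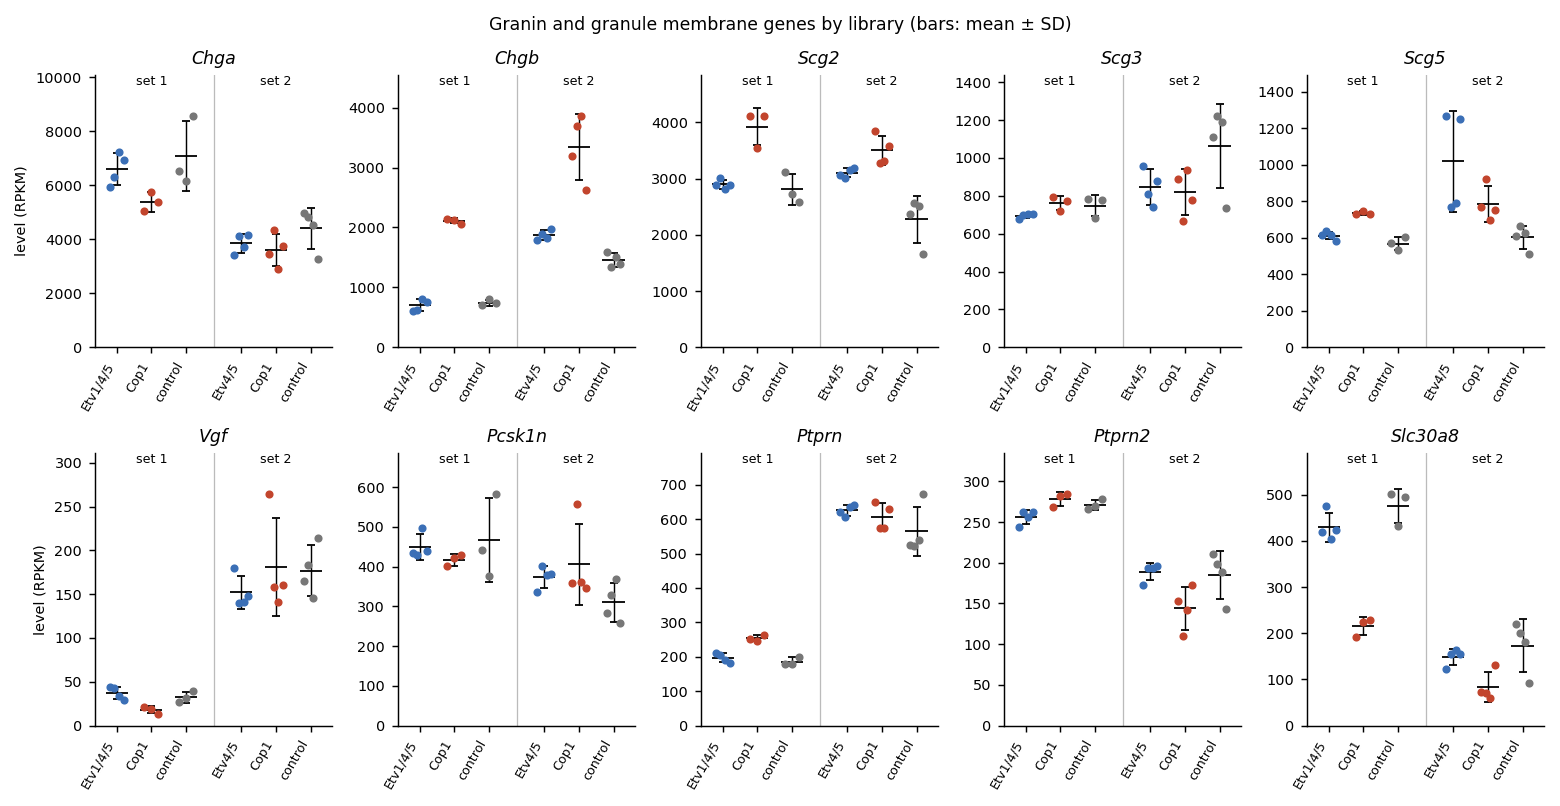
RPKM of each of the 10 genes in each library (points), with the group mean and SD, for the Etv, Cop1 deletion and control groups of set 1 and set 2. Chgb in Cop1 deletion libraries lies above every other library of its set, and Slc30a8 in the set 1 Cop1 deletion libraries lies below every other library of that set.

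Chgb encodes chromogranin B, a granin abundant in insulin granules. In set 1 its level was 609.7, 617, 811 and 758 RPKM in Etv1/4/5 libraries, 2144, 2128 and 2061 RPKM in Cop1 deletion libraries and 704, 799 and 731 RPKM in control libraries. Cop1 deletion libraries stood apart from both other groups, which overlapped. The Cop1 deletion change was 1.5 (SE 0.12, adjusted p = 3.26e-07) in set 1. With the added Etv deletion the level differed from Cop1 deletion by -1.61 (SE 0.12, adjusted p = 1.27e-07) and from control by -0.10 (SE 0.12, adjusted p = 0.935). By rank among all genes, Chgb stood at 31 to 35 in Etv1/4/5 libraries, 11 to 15 in Cop1 deletion libraries and 29 to 35 in controls.

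In set 2, Chgb was 1794, 1887, 1819 and 1977 RPKM in Etv4/5 libraries, 3191, 3696, 3859.8 and 2623 RPKM in Cop1 deletion libraries and 1587, 1338, 1508 and 1384 RPKM in control libraries. Here the 3 groups did not overlap, and the Etv4/5 libraries lay between the other groups. Cop1 deletion changed Chgb by 1.19 (SE 0.11, adjusted p = 5.40e-07), and Etv4/5 differed from Cop1 deletion by -0.82 (SE 0.11, adjusted p = 0.00404). Above control, the Etv4/5 libraries were higher by 0.36 (SE 0.11, adjusted p = 0.0404), a call that ended when any Etv4/5 library or set 2 control replicate 2, 3 or 4 was left out (adjusted p of 0.0597 to 0.115) and under each of the 5 other scalings (0.0513 to 0.286), among 15 alternatives that ended it. The call of Etv4/5 against Cop1 deletion ended under quantile normalization (log2 change -0.41, adjusted p = 0.0939), with set 2 fitted alone (-0.82, adjusted p = 0.0750) and with the set 2 libraries that express Xist only (-0.58, adjusted p = 0.147). The 23 acinar markers tested had a median log2 difference of -1.95 in Etv4/5 against Cop1 deletion, with 0 called in limma and 21 at an unadjusted p below 0.05, and their part in the values was not tested. The difference that the Etv deletion made to Chgb, relative to Cop1 deletion, was larger in set 1 than in set 2, by -0.78 (SE 0.16, adjusted p = 0.00958), and this held in every alternative run. The sets differ in the Etv alleles deleted as well as in sample numbers and depth, and these cannot be told apart. For Cop1 deletion itself the difference between the sets was 0.32 (SE 0.16, adjusted p = 0.339).

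Scg2 encodes secretogranin II, the precursor of secretoneurin. It was 2884, 3003, 2809 and 2889 RPKM in Etv1/4/5 libraries, 4110.3, 3537 and 4108 RPKM in Cop1 deletion libraries and 3118, 2725 and 2588 RPKM in set 1 control libraries. Cop1 deletion libraries were again the highest of set 1, and the Etv1/4/5 and control libraries overlapped. The change after Cop1 deletion was 0.48 (SE 0.12, adjusted p = 0.0184), and Etv1/4/5 differed from Cop1 deletion by -0.43 (SE 0.11, adjusted p = 0.0272). The first call ended without set 1 Cop1 deletion replicate 2 or 4 or set 1 control replicate 2 or 3 (adjusted p of 0.0529 to 0.0807), and the second without Cop1 deletion replicate 2 or 4 or Etv1/4/5 replicate 1, 3 or 4 (0.0590 to 0.120). In set 2, Scg2 stood at 3068, 3014, 3155 and 3181 RPKM in Etv4/5 libraries, 3839, 3279.5, 3312 and 3572 RPKM in Cop1 deletion libraries and 2363, 2568, 2514 and 1661 RPKM in control libraries. Both Cre groups lay above all controls, by 0.64 (SE 0.11, adjusted p = 0.000393) for Cop1 deletion and 0.47 (SE 0.11, adjusted p = 0.00835) for Etv4/5, of which the second was lost with set 2 fitted alone (0.0613) or with Xist libraries only (0.0553). Etv4/5 against Cop1 deletion gave -0.17 (SE 0.11, adjusted p = 0.331), with no overlap between these groups. Control replicate 4 was the lowest library of set 2, and without it the values were 0.49 for Cop1 deletion (adjusted p = 0.000130) and 0.32 for Etv4/5 (adjusted p = 0.00830). Quantile normalization, which forces all libraries to the same distribution of values, turned the Scg2 change to -0.01 over both sets and to -0.09 in set 1, and left 0.06 in set 2, with none of these called.

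Both of these genes carry the letters of a cAMP response element, the sequence bound by CREB-family factors, just before the start site. The promoter letters are shown because Chgb and Scg2 were the called granins that rose in both sets. RefSeq start sites (GRCm38.p6) with 250 bases before and 50 bases after were available for 8 of the 10 members, as 9 entries since Ptprn has 2. The full palindrome TGACGTCA occurred in 2 of the 9 entries, Chgb and Scg2, and in 1.79% of 32851 promoters of that length. Its first base lay at -72 from the Chgb start and at -68 from the Scg2 start. The shorter TGACG, on either strand and including the matches inside the palindrome, was added after the palindrome had been seen. It occurred in 6 of the 9 entries (Chga, Chgb, Ptprn, Scg2, Scg3 and Scg5) and in 20.8% of all promoters. The ETS-type sequences CCGGAAGT and CAGGAAGT, searched on both strands, occurred in 0 of the 9 entries, beside 3.89% and 3.33% of all promoters. A match describes letters and shows no binding, and a missing match says only that these letters were not in the window. The 130 bases directly before the start site, which hold the elements, are given on the strand of the gene, with TGACGTCA (Chgb, Scg2) or TGACG (Chga) in capitals.
Chgb promoter, chr2:132781512-132781641, plus strand: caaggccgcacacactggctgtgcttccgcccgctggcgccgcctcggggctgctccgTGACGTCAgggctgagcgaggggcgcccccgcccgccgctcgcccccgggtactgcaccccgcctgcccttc
Scg2 promoter, chr1:79440027-79440156, minus strand: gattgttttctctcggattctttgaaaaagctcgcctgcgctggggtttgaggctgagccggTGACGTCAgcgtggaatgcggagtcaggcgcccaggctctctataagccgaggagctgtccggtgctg
Chga promoter, chr12:102554811-102554940, plus strand: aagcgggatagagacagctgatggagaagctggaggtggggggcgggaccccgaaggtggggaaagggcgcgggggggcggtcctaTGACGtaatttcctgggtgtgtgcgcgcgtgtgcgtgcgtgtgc

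Chga encodes chromogranin A, the most abundant member in set 1, at rank 6 to 7 among all genes there. It was 5919, 6301, 7217 and 6929 RPKM in Etv1/4/5 libraries, 5033, 5764 and 5378 RPKM in Cop1 deletion libraries and 6525, 6171 and 8559.7 RPKM in control libraries of set 1. All Cop1 deletion libraries lay below both other groups, but the spread of the controls was wide. The difference was -0.38 (SE 0.16, adjusted p = 0.170) for Cop1 deletion against control and 0.29 (SE 0.15, adjusted p = 0.317) for Etv1/4/5 against Cop1 deletion. For Cop1 deletion in set 1, 2 alternatives made a call, -0.47 (adjusted p = 0.0459) without both controls that stand apart and -0.25 (0.0257) with library weights. The value was -0.09 (adjusted p = 0.903) under quantile normalization, -0.24 (0.537) without set 1 control replicate 3 and -0.25 (0.211) with equal total RPKM. In set 2 the levels were 3416, 4132, 3694 and 4146 RPKM in Etv4/5 libraries, 3436, 4326, 2892 and 3744 RPKM in Cop1 deletion libraries and 4982, 4808, 4519 and 3286 RPKM in control libraries. Etv4/5 and Cop1 deletion libraries overlapped, control replicate 4 fell among them and the other controls were higher, and Cop1 deletion against control was -0.29 (SE 0.14, adjusted p = 0.152). Without that control the value was -0.42 (adjusted p = 0.0229). Over both sets the value was -0.33 (SE 0.11, adjusted p = 0.0308), and this call ended without set 1 Cop1 deletion replicate 2 or 4, set 1 control replicate 3, set 2 Cop1 deletion replicate 3, or set 2 control replicate 1, 2 or 3 (adjusted p of 0.0516 to 0.0951).

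Within a library, the balance of the granins can be read without the scaling of the library. The Chgb to Chga ratio was 0.0979 to 0.112 in Etv1/4/5, 0.369 to 0.426 in Cop1 deletion and 0.0854 to 0.129 in control libraries of set 1. In set 2 it was 0.457 to 0.525 in Etv4/5, 0.701 to 1.33 in Cop1 deletion and 0.278 to 0.421 in control libraries. The Cop1 deletion libraries had the highest ratio in each set, set 1 Etv1/4/5 libraries fell within the control range, and set 2 Etv4/5 libraries lay between the other groups. Chga made up 53.0% to 56.9% of the summed RPKM of the 7 granins and granin-like genes in Etv1/4/5, 38.0% to 43.2% in Cop1 deletion and 53.6% to 61.7% in control libraries of set 1. Its share in set 2 was 31.0% to 37.1% in Etv4/5, 23.7% to 31.8% in Cop1 deletion and 40.8% to 44.9% in control libraries. The Scg2 to Chga ratio moved the same way, at 0.389 to 0.487, 0.614 to 0.817 and 0.302 to 0.478 in the Etv1/4/5, Cop1 deletion and control libraries of set 1, and 0.730 to 0.898, 0.758 to 1.14 and 0.474 to 0.556 in the Etv4/5, Cop1 deletion and control libraries of set 2. These ratios show unequal change between genes, not which of them changed.

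**Figure D2:**
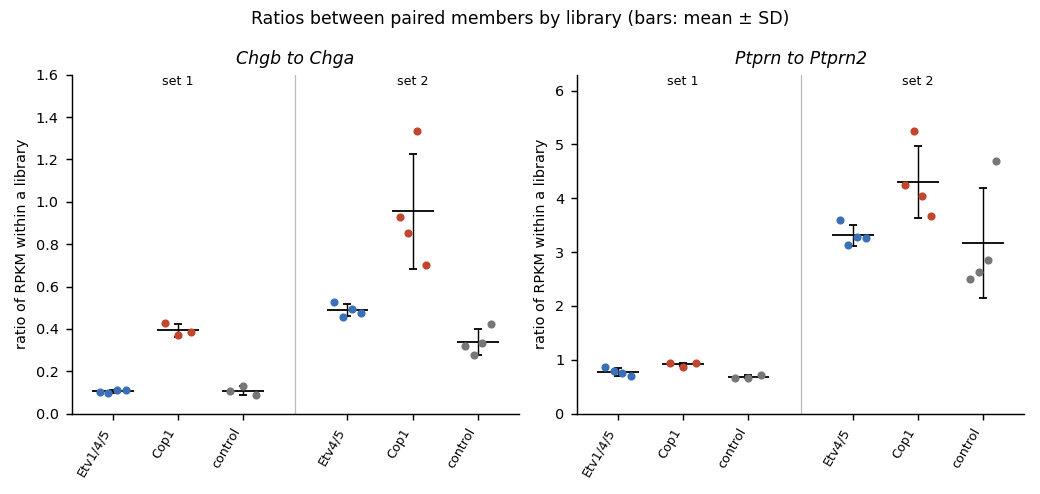
Ratio of RPKM within each library (points, with group mean and SD) for Chgb over Chga and for Ptprn over Ptprn2, by group and set. Chgb over Chga is highest in the Cop1 deletion libraries of each set, and Ptprn over Ptprn2 is below 1 in every set 1 library and above 2 in every set 2 library.

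Scg3, or secretogranin III, tethers chromogranin A to cholesterol-rich granule membrane. It was 675 to 705 RPKM in Etv1/4/5, 722 to 792 RPKM in Cop1 deletion and 684 to 782 RPKM in control libraries of set 1, where Cop1 deletion and control libraries overlapped. In set 2 it was 958, 808, 741 and 877 RPKM in Etv4/5 libraries, 889, 667, 938 and 779.8 RPKM in Cop1 deletion libraries and 1109.5, 1221, 1188 and 735 RPKM in control libraries. Control replicate 4 was far below the other controls, and the log2 difference of Cop1 deletion from control was -0.36 (SE 0.13, adjusted p = 0.0609). Without control replicate 4 it was -0.53 (adjusted p = 0.00103), and Etv4/5 against control was -0.48 (adjusted p = 0.00453) where all libraries gave -0.31 (SE 0.13, adjusted p = 0.169). Over both sets the value was -0.17 (SE 0.10, adjusted p = 0.265), and -0.25 (adjusted p = 0.0184) without that control. The set 2 call was also made without Cop1 deletion replicate 1 (adjusted p = 0.0468) or replicate 3 (0.0378).

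Scg5 encodes 7B2, the chaperone that the convertase PC2 needs to mature. It was 1266, 768, 791 and 1251 RPKM in Etv4/5 libraries, 769, 924, 696 and 753 RPKM in Cop1 deletion libraries and 607, 663, 625 and 511 RPKM in control libraries of set 2. Replicates 1 and 4 of the Etv4/5 group were far above replicates 2 and 3, and all Etv4/5 and Cop1 deletion libraries lay above the controls. Etv4/5 against control was 0.72 (SE 0.14, adjusted p = 0.00197), a call kept in every alternative, and Cop1 deletion against control was 0.38 (SE 0.14, adjusted p = 0.0582). The corresponding levels in set 1 were 613, 635, 614 and 584 RPKM in Etv1/4/5, 729, 747 and 728 RPKM in Cop1 deletion and 569, 533 and 602 RPKM in control libraries. Cop1 deletion libraries lay above both other groups, by 0.37 (SE 0.16, adjusted p = 0.181) over control, and the value over both sets was 0.38 (SE 0.10, adjusted p = 0.0151), or 0.32 (adjusted p = 0.0568) without the 2 controls that stand apart. Quantile normalization ended that call as well (0.23, adjusted p = 0.223). The set 1 value was called with set 1 fitted alone (0.37, adjusted p = 0.00167) and with equal total RPKM (0.51, adjusted p = 0.0340), and the set 2 value without Cop1 deletion replicate 3 (0.44, adjusted p = 0.0470). Etv1/4/5 against Cop1 deletion was -0.27 (adjusted p = 0.367), and was called with set 1 fitted alone (adjusted p = 0.00863). Of all genes tested, the row of NCBI Gene 100862246, which has no symbol in the table used, followed Scg5 most closely (r = 0.99 over 22 libraries, set means removed). That gene held 991 and 964 RPKM in Etv4/5 replicates 1 and 4, against 586 and 597 RPKM in replicates 2 and 3. Whether the 2 rows share reads is not given, so the level of Scg5 is uncertain.

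Vgf, a precursor of neuroendocrine peptides that responds to growth factors and cAMP, was the member with the lowest level in set 1. Set 1 libraries held 43.7, 42.9, 33.8 and 29.4 RPKM in the Etv1/4/5 group, 21.0, 19.2 and 13.3 RPKM in the Cop1 deletion group and 27.0, 31.1 and 39.2 RPKM in the control group. Cop1 deletion libraries were below all others. Vgf changed by -0.86 (SE 0.22, adjusted p = 0.0192) after Cop1 deletion, and Etv1/4/5 exceeded Cop1 deletion by 1.06 (SE 0.21, adjusted p = 0.00296). Leaving out Cop1 deletion replicate 4 or control replicate 3 ended the first call (adjusted p = 0.114 and 0.0942), as did equal total RPKM (0.0731), and no alternative ended the second. In set 2 Vgf was 180.1, 139, 141 and 148 RPKM in Etv4/5, 264, 159, 141 and 161 RPKM in Cop1 deletion and 165, 183, 145 and 214 RPKM in control libraries. These groups overlapped, and Cop1 deletion against control was 0.00 (SE 0.19, adjusted p = 0.992), Etv4/5 against Cop1 deletion -0.21 (SE 0.19, adjusted p = 0.503). The effect of the added Etv deletion differed between the sets by 1.27 (SE 0.28, adjusted p = 0.0153), or 1.08 (adjusted p = 0.0570) without set 1 Cop1 deletion replicate 4. The Cop1 deletion effect differed between the sets by -0.86 (SE 0.29, adjusted p = 0.130). Over both sets Vgf changed by -0.43 (SE 0.15, adjusted p = 0.0454), a call ended by leaving out set 1 Cop1 deletion replicate 3 or 4, set 1 control replicate 2 or 3, set 2 Cop1 deletion replicate 2, 3 or 4, or set 2 control replicate 1, 2 or 4 (adjusted p of 0.0571 to 0.141). Of 29 alternatives, 17 ended it. Among them were leaving out both controls that stand apart, quantile normalization, equal total RPKM and Xist libraries only. The log2 value stayed between -0.52 and -0.30 over the alternatives.

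Pcsk1n encodes proSAAS, a granin-like inhibitor of the convertase PC1/3, and was not called in any comparison. Its level in set 1 was 434, 429, 497 and 438 RPKM in Etv1/4/5, 401, 422 and 430.0 RPKM in Cop1 deletion and 442, 376 and 582 RPKM in control libraries. In set 2, Pcsk1n was 335, 401, 379 and 381 RPKM in Etv4/5, 359, 557, 361 and 346 RPKM in Cop1 deletion and 284, 327, 369.9 and 259 RPKM in control libraries. The groups overlapped in both sets, and the highest Cop1 deletion library of set 2 was replicate 2. Cop1 deletion against control was -0.14 (SE 0.17, adjusted p = 0.751) in set 1 and 0.37 (SE 0.14, adjusted p = 0.0768) in set 2, and the second was called without set 2 control replicate 3 (0.46, adjusted p = 0.0458).

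Ptprn and Ptprn2 encode a pair of related granule membrane proteins that stabilize granules. Ptprn was 212, 206, 191 and 181 RPKM in Etv1/4/5, 250.5, 246 and 264 RPKM in Cop1 deletion and 178, 179.8 and 200.1 RPKM in control libraries of set 1. Cop1 deletion libraries were the highest and did not overlap with the others. The change was 0.45 (SE 0.09, adjusted p = 0.00259) for Cop1 deletion and -0.36 (SE 0.08, adjusted p = 0.00922) for Etv1/4/5 against Cop1 deletion, of which the second was lost without Cop1 deletion replicate 4 (adjusted p = 0.0586). Quantile normalization ended both calls (adjusted p = 0.0848 and 0.365). Over both sets Ptprn changed by 0.28 (SE 0.06, adjusted p = 0.00173), a call lost with Ins1 and Ins2 left out of the total (0.0871) and under quantile normalization (0.720). In set 2 Ptprn was 621, 606, 635 and 640.3 RPKM in Etv4/5, 651, 575, 575 and 631 RPKM in Cop1 deletion and 524, 522, 539 and 672 RPKM in control libraries. Control replicate 4 exceeded every library of set 2, and the other controls lay below every Cre library. Cop1 deletion against control was 0.11 (SE 0.08, adjusted p = 0.306), or 0.20 (adjusted p = 0.0275) without that control, and Etv4/5 against control was 0.16 (SE 0.08, adjusted p = 0.233), or 0.24 (adjusted p = 0.0183). The added Etv effect differed between the sets by -0.41 (SE 0.11, adjusted p = 0.0454), a call that 20 alternatives ended, among them leaving out any of the 3 set 1 Cop1 deletion libraries, Etv1/4/5 replicate 2, 3 or 4, set 2 Cop1 deletion replicate 2 or 3, or any Etv4/5 library (adjusted p of 0.0574 to 0.124).

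Ptprn2 was 244 to 263 RPKM in Etv1/4/5, 268 to 284 RPKM in Cop1 deletion and 267 to 278 RPKM in control libraries of set 1, with a Cop1 deletion change of 0.03 (SE 0.13, adjusted p = 0.934). The groups lay close together there, with means of 256 ± 8.39, 278 ± 8.64 and 272 ± 6.12 RPKM (SD) in Etv1/4/5, Cop1 deletion and control libraries. In set 2 it was 173, 194, 193 and 196 RPKM in Etv4/5, 153, 109.6, 142 and 172 RPKM in Cop1 deletion and 210.4, 198, 189 and 143 RPKM in control libraries. Cop1 deletion libraries were below all Etv4/5 libraries and overlapped with the controls through control replicate 4. Cop1 deletion against control was -0.36 (SE 0.11, adjusted p = 0.0296), and Etv4/5 against Cop1 deletion was 0.41 (SE 0.11, adjusted p = 0.0671). The call against control was lost without Cop1 deletion replicate 2 or control replicate 1, 2 or 3 (adjusted p of 0.0664 to 0.10), and without Cop1 deletion replicates 2 and 3 the value was -0.18 (adjusted p = 0.325). Over both sets Ptprn2 gave -0.17 (SE 0.09, adjusted p = 0.192), or -0.22 (adjusted p = 0.0331) without set 2 control replicate 4. The call of Etv4/5 against Cop1 deletion was made without Cop1 deletion replicate 4 (0.50, adjusted p = 0.0162). Ptprn was 0.692 to 0.866 times Ptprn2 in Etv1/4/5, 0.872 to 0.933 times in Cop1 deletion and 0.667 to 0.719 times in control libraries of set 1. In set 2 the same ratio was 3.12 to 3.59 in Etv4/5, 3.66 to 5.25 in Cop1 deletion and 2.49 to 4.69 in control libraries. The ratio was below 1 in every set 1 library and above 2 in every set 2 library, which is a description, since levels are tested within a set only.

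Slc30a8 was 419, 475, 403 and 423 RPKM in Etv1/4/5, 193, 224 and 228 RPKM in Cop1 deletion and 501, 433 and 494 RPKM in control libraries of set 1. All Cop1 deletion libraries lay below both other groups, which overlapped. The change was -1.15 (SE 0.26, adjusted p = 0.00908) after Cop1 deletion and 1.0 (SE 0.25, adjusted p = 0.0174) for Etv1/4/5 against Cop1 deletion. The second call ended without Cop1 deletion replicate 2, 3 or 4 or Etv1/4/5 replicate 2 (adjusted p of 0.050 to 0.0830), while its log2 value stayed between 0.92 and 1.04 there. In set 2, Slc30a8 was 123, 156, 163 and 154 RPKM in Etv4/5, 72.7, 69.5, 58.6 and 132 RPKM in Cop1 deletion and 221, 200.04, 180.3 and 92.3 RPKM in control libraries. Control replicate 4 was low and Cop1 deletion replicate 4 high, and these are the libraries through which the groups overlapped. Cop1 deletion against control was -1.05 (SE 0.23, adjusted p = 0.00336), or -1.33 (adjusted p = 6.26e-05) without control replicate 4. Without Cop1 deletion replicates 2 and 3 it was -0.75 (adjusted p = 0.0819), with the same value but an adjusted p of 0.106 with Xist libraries only. Both settings leave out the same Cop1 deletion libraries and keep all controls, so in this comparison they are not separate checks. Etv4/5 against Cop1 deletion was 0.90 (SE 0.23, adjusted p = 0.0505), just outside the threshold. It was 0.33 (adjusted p = 0.0713) with library weights, 0.59 (0.387) without Cop1 deletion replicates 2 and 3, 0.66 (0.505) with Xist libraries only and 0.90 (0.251) with set 2 fitted alone. It was 1.15 (adjusted p = 0.00570) without Cop1 deletion replicate 4, and 4 scalings and a pseudocount of 1 also made the call (0.0359 to 0.0480). The acinar values given for Chgb belong to the same comparison. Per unit of Ins2, the main insulin gene of mice, Slc30a8 was lower as well: times 1000, the ratio was 2.0 to 2.20 in Etv1/4/5, 1.10 to 1.37 in Cop1 deletion and 2.19 to 2.32 in control libraries of set 1. It was 0.922 to 1.15 in Etv4/5, 0.435 to 1.03 in Cop1 deletion and 0.816 to 1.53 in control libraries of set 2, where the groups overlapped.

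**Figure D3:**
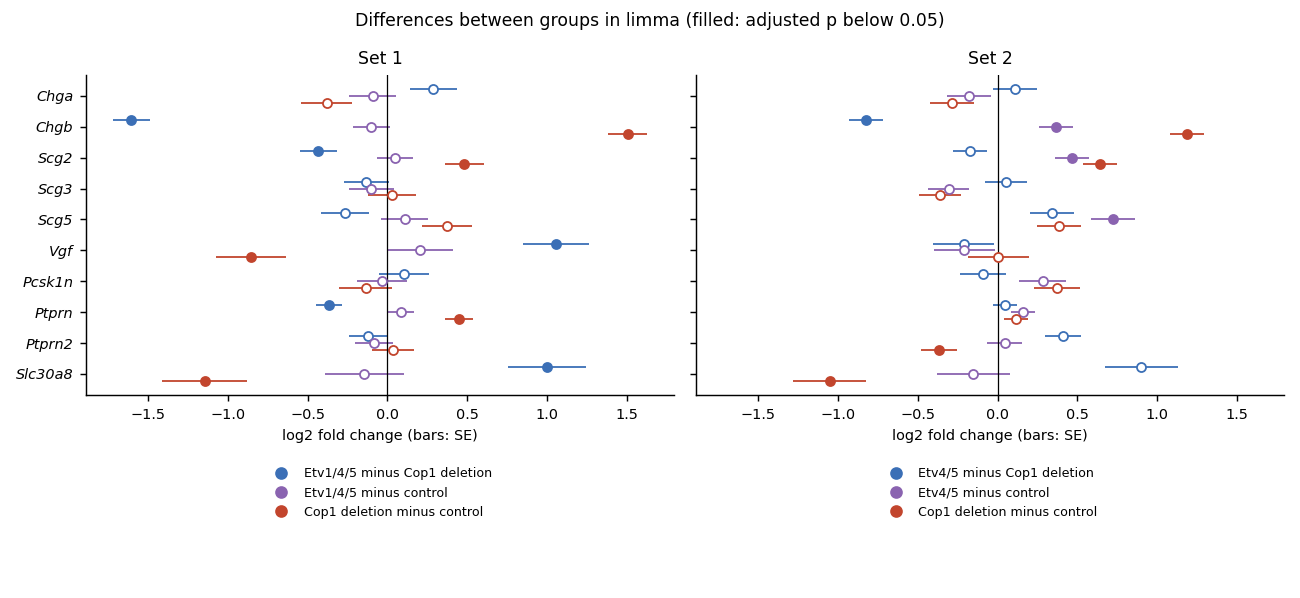
Log2 fold change with SE of each of the 10 genes in limma, by comparison and set, filled where the adjusted p is below 0.05. Chgb changed by 1.5 and 1.19 after Cop1 deletion in sets 1 and 2, and Slc30a8 by -1.15 and -1.05.

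By comparison, Cop1 deletion called 5 of the 10 members in set 1 (Chgb, Scg2 and Ptprn higher, Vgf and Slc30a8 lower), against 8.33% of all genes (4.04% higher and 4.29% lower). In set 2 it called 4 (Chgb and Scg2 higher, Ptprn2 and Slc30a8 lower), against 18.8% of all genes (9.09% higher and 9.75% lower). The difference of the Cop1 deletion effect between the sets was called by limma for 0 of the 10, against 2.83% of all genes (0.997% higher and 1.83% lower). Below an unadjusted p of 0.05 there were 4 members, and no share of all genes is given for that threshold. Etv1/4/5 against Cop1 deletion called 5 (Vgf and Slc30a8 higher, Chgb, Scg2 and Ptprn lower), against 6.34% of all genes (3.65% higher and 2.69% lower). These are the 5 genes called after Cop1 deletion in set 1, each with the opposite sign, and both comparisons share the Cop1 deletion libraries. Etv1/4/5 against control called 0 of the 10 in limma, against 1.32% of all genes (0.899% higher and 0.418% lower), and 0 members were below an unadjusted p of 0.05. The differences there were -0.15 (Slc30a8) to 0.20 (Vgf) on the log2 scale, and a value that was not called does not show that the groups were alike. Etv4/5 against Cop1 deletion called 1 (Chgb, lower), against 1.73% of all genes (0.676% higher and 1.05% lower). Etv4/5 against control called 3 (Chgb, Scg2 and Scg5, all higher), against 8.74% of all genes (4.99% higher and 3.75% lower). The difference of the added Etv effect between the sets was called for 3 (Vgf higher, Chgb and Ptprn lower in set 1), against 4.06% of all genes (2.34% higher and 1.72% lower). Without set 2 control replicate 4, Cop1 deletion in set 2 called 7 members, the 4 above with Chga and Scg3 lower and Ptprn higher. The share of all genes called in that fit is not given here, so the count of 7 cannot be judged against it. Over the alternatives, calls among all genes in this comparison ranged from 1329 to 5035.

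Scaling libraries to equal total RPKM moved the median of all genes tested by 0.12 for Cop1 deletion in set 1, by -0.13 for Etv1/4/5 against Cop1 deletion, by 0.19 for the difference of the Cop1 deletion effect between the sets and by -0.13 for that of the added Etv effect. Leaving Ins1 and Ins2 out of the total moved it by -0.15 for Cop1 deletion in set 2, by 0.14 for the difference of its effect between the sets and by -0.11 for Etv4/5 against control. Relative to that median under equal total RPKM, the set 1 Cop1 deletion changes were 1.52 for Chgb, 0.50 for Scg2, 0.47 for Ptprn, -0.84 for Vgf and -1.13 for Slc30a8, beside 1.5, 0.48, 0.45, -0.86 and -1.15 as deposited. As deposited, the insulin genes held 35.8% to 41.1% of the summed RPKM in Etv1/4/5, 31.5% to 34.5% in Cop1 deletion and 38.9% to 40.7% in control libraries of set 1. In set 2 they held 25.8% to 28.9% in Etv4/5, 21.0% to 27.1% in Cop1 deletion and 26.9% to 30.7% in control libraries. The part of this in the members' values was not tested.

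Other genes of the granule were counted from lists of known function, beside 9.57% higher and 10.5% lower over all genes after Cop1 deletion over both sets. These lists, too, were chosen with earlier results of these data known. Of 13 prohormones and processing enzymes, 6 rose and 4 fell after Cop1 deletion over both sets, among them Sec11c, a signal peptidase subunit, at 0.64 (SE 0.05, adjusted p = 1.20e-07), and Pam, which amidates peptides, at 0.72 (SE 0.08, adjusted p = 3.28e-06). Ins1 fell by 0.74 and Ero1b, an oxidase of the endoplasmic reticulum that helps proinsulin fold, by 0.78 on the log2 scale. Of 27 genes for granule budding, sorting and maturation, 1 rose (Ica1, 0.29) and 4 fell, among them Hip1r at -0.36, and the median was -0.08, so the share called was below the 20.1% of all genes. The granule proton pump, which acidifies the lumen, had 1 higher (Atp6v0e, 0.32) and 2 lower of 20 genes, also below that share. Among 22 other granule membrane proteins tested of 25, 6 rose and 3 fell. Sytl4 (granuphilin), which docks insulin granules, had -1.76 (SE 0.13, adjusted p = 1.43e-08), Cltrn (collectrin) 0.93 (SE 0.09, adjusted p = 6.38e-07) and Rab3b 0.80 (SE 0.11, adjusted p = 5.72e-05). For Cltrn the Cop1 deletion effect differed between the sets, set 1 minus set 2, by 0.92 (adjusted p = 0.00789), with 1.38 in set 1.

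Of 19 zinc transporters and metallothioneins tested of 24, which are the wider family of Slc30a8 and its zinc-binding partners, 2 rose and 2 fell. Over both sets Slc39a11, a zinc transporter of the ZIP family, had 0.81 (SE 0.06, adjusted p = 1.0e-08), and Mt2 and Mt1, which bind zinc in the cytosol, had -0.77 and -0.50. In set 1, 1 of the 19 was called higher and 2 lower, against 4.04% and 4.29% of all genes. In set 2, 3 were called higher and 0 lower, against 9.09% and 9.75%. The Cop1 deletion effect differed between the sets, set 1 minus set 2, by 0.52 for Slc39a11 (adjusted p = 0.0144) and -0.99 for Mt2 (0.0416). Mt2 had -1.26 in set 1 (adjusted p = 0.000272). Against Cop1 deletion, Etv1/4/5 libraries had Slc39a11 at -0.90 (SE 0.08, adjusted p = 1.66e-06) and Mt2 at 1.47 (SE 0.18, adjusted p = 5.17e-05). Etv4/5 against Cop1 deletion called 0 of these 19 genes in limma, against 1.73% of all genes. The added Etv effect on Mt2 differed between the sets, set 1 minus set 2, by 1.98 (adjusted p = 0.000316). Against control, Etv4/5 libraries had Slc39a11 at 0.45 (adjusted p = 0.000506) and Mt2 at -0.79 (adjusted p = 0.00488). Of 13 known regulators of granule genes tested of 14, 8 fell and 0 rose after Cop1 deletion in limma, against 10.5% lower and 9.57% higher over all genes. At an unadjusted p below 0.05 there were 11 in either direction. No share of all genes at that unadjusted threshold is given here. Mafa, a β-cell activator of insulin transcription, had -2.80 (SE 0.23, adjusted p = 9.54e-08), Neurod1 -0.69 (SE 0.06, adjusted p = 1.85e-07), Nkx2-2 -0.47 (SE 0.08, adjusted p = 0.000312) and Creb1, which binds the cAMP response element, -0.36 (SE 0.08, adjusted p = 0.00259). In Etv1/4/5 against Cop1 deletion 3 of the 13 regulators were higher, among them Mafa (1.23) and Neurod1 (0.32), against 3.65% of all genes, and in Etv4/5 against Cop1 deletion 1 was higher, Mafa (1.60), against 0.676% of all genes. With set 2 fitted alone, 0 genes were called in Etv4/5 against Cop1 deletion, so the Mafa call there ended.

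Over the 22 libraries, with set means removed, the pairs of members most alike were Chgb and Scg2 (Pearson r of log2 values 0.75) and Chga and Slc30a8 (0.74), and the most unlike pair was Chgb and Slc30a8 (-0.85). Libraries of a group share genotype and set, so these are descriptions. By the same measure, the gene closest to Chgb was Amigo2 (0.95), to Scg2 Stxbp6 (0.92), to Chga Akr1c19 (0.91) and to Scg3 Tmcc3 (0.83). Vgf was closest to Srxn1 (0.85), Pcsk1n to Ndufs7 (0.87), Ptprn to Rgs9 (0.90), Ptprn2 to Abat (0.97) and Slc30a8 to Ppm1b (0.93).

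Granins are made by every endocrine cell type of the islet, so marker sums are set beside them. The 9 β-cell markers had 1 higher and 5 lower after Cop1 deletion over both sets, against 9.57% higher and 10.5% lower over all genes, among them Slc2a2, the glucose transporter, at -2.68 (SE 0.19, adjusted p = 1.01e-08). The sum of 5 δ-cell markers was 4606 to 7384 RPKM in Etv1/4/5, 2385 to 2896 RPKM in Cop1 deletion and 3702 to 7213 RPKM in control libraries of set 1. In set 2 it was 2374 to 3180.2 RPKM in Etv4/5, 2313 to 3092 RPKM in Cop1 deletion and 3959 to 5628 RPKM in control libraries, so δ-cell sums were lower in Cop1 deletion than in control libraries in both sets. Of the 4 δ-cell markers tested, 2 were called lower over both sets, Sst (-0.84) and Ghsr (-0.61), against 10.5% of all genes. The other 2 were not called. In set 1 only Sst was called lower, against 4.29% of all genes, and in set 2 Sst and Ghsr were, against 9.75%. The 3 PP-cell markers summed to 2593 to 6574, 6611 to 8719 and 1858 to 3504 RPKM in the Etv1/4/5, Cop1 deletion and control libraries of set 1, and 7125 to 8171, 7047 to 19022 and 4122 to 6515 RPKM in the Etv4/5, Cop1 deletion and control libraries of set 2. PP-cell sums were higher in Cop1 deletion than in control libraries in both sets. Of the 3 markers, 2 (Ppy and Pyy) were called higher in each set, against 4.04% of all genes in set 1 and 9.09% in set 2. The third, Sertm1, was not called there. In Etv1/4/5 against Cop1 deletion, where the sum was lower, Sertm1 was called higher in limma (0.77, adjusted p = 0.00189), against 3.65% of all genes.

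The 6 α-cell markers summed to 30642 to 39859 RPKM in Etv1/4/5, 17622 to 27068 RPKM in Cop1 deletion and 18487 to 41587 RPKM in control libraries of set 1, and to 24626 to 34695 RPKM in Etv4/5, 17245 to 28852 RPKM in Cop1 deletion and 19013 to 31629 RPKM in control libraries of set 2. Cop1 deletion and control overlapped in both sets, and the set 1 Etv1/4/5 libraries lay above all Cop1 deletion libraries. The median α-cell marker differed by 0.37 (log2) in Etv1/4/5 against Cop1 deletion, with 0 of 6 called in limma and 3 at an unadjusted p below 0.05, and by 0.38 in Etv4/5 against Cop1 deletion, where 1 was called, Ttr at 1.06 (adjusted p = 0.0226). The Ttr call ended with set 2 fitted alone, where 0 genes were called in Etv4/5 against Cop1 deletion. The 25 acinar markers summed to 3505 to 20516 RPKM in Etv1/4/5, 6489 to 19760 RPKM in Cop1 deletion and 4470 to 12351 RPKM in control libraries of set 1, and to 1320 to 5556 RPKM in Etv4/5, 5299 to 29020 RPKM in Cop1 deletion and 1043 to 15160 RPKM in control libraries of set 2. These ranges overlapped within each set. The median of the 23 acinar markers tested was -1.95 in Etv4/5 against Cop1 deletion (0 called in limma, 21 at an unadjusted p below 0.05) and 1.39 in Cop1 deletion against control (0 called in limma, 3 at an unadjusted p below 0.05), beside 0.50 in Cop1 deletion of set 1 (0 called, 0 at an unadjusted p below 0.05). The 11 duct markers summed to 637 to 717 RPKM in Etv1/4/5, 572 to 655 RPKM in Cop1 deletion and 469.6 to 611 RPKM in control libraries of set 1, and to 1423 to 3004 RPKM in Etv4/5, 3072 to 4764 RPKM in Cop1 deletion and 1422 to 1869 RPKM in control libraries of set 2, where Cop1 deletion libraries lay above both other groups. Of the 9 duct markers tested, Cop1 deletion called 5 higher in set 2, against 9.09% of all genes. In set 1 it called 2 higher, Spp1 and Tspan8, against 4.04%. The Cop1 deletion effect was lower in set 1 than in set 2 for 3 of the 9, against 1.83% of all genes. Etv4/5 against control called 2 higher, Epcam (0.74) and Krt7 (1.05), against 4.99% of all genes. The 16 macrophage and immune markers summed to 217 to 276 RPKM in Etv4/5, 237 to 651 RPKM in Cop1 deletion and 94.0 to 192 RPKM in control libraries of set 2, so Cop1 deletion libraries lay above all controls. There 4 of the 13 tested were called higher after Cop1 deletion, against 9.09% of all genes, with a median of 0.91. In set 1 the sums were 326 to 447 RPKM in Etv1/4/5, 325 to 438 RPKM in Cop1 deletion and 332 to 363 RPKM in control libraries, with overlap. There 1 of the 13 was called higher after Cop1 deletion, C1qa at 1.31 (adjusted p = 0.000104), against 4.04% of all genes, with a median of -0.004. C1qa was among the 4 called in set 2, at 2.56 (adjusted p = 6.03e-09). The 12 Schwann and neuron markers summed to 94.6 to 117 RPKM in Etv1/4/5, 76.6 to 89.2 RPKM in Cop1 deletion and 84.6 to 92.6 RPKM in control libraries of set 1, and to 44.5 to 55.7 RPKM in Etv4/5, 25.03 to 40.5 RPKM in Cop1 deletion and 50.2 to 56.9 RPKM in control libraries of set 2. In both sets the Cop1 deletion libraries lay below the Etv libraries. Of the 4 markers listed as enterochromaffin-like the sum was at most 8.67 RPKM in set 1, with Tph1 and Lmx1a at 0 in every set 1 Cop1 deletion library. Of the endothelial and the stellate and fibroblast markers, 0 were called by limma in any comparison, with 0 at an unadjusted p below 0.05 in Cop1 deletion against control and at most 1 of each list in the comparisons with Etv libraries. The part of any of these cells in the members' values was not tested.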

How the data were processed

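Total RNA of cultured, hand-picked islets was extracted on columns with DNase digestion and sequenced, per the labels' protocols. The authors deposited RPKM values per NCBI Gene number, on build mm9 according to the submitters' processing notes. Aligner, counter, annotation and strand: not given in the sources used here. Of 24 library columns, 22 were used. The other 2 could not be tied to 1 sample each (their headers match 2 titles or none). RefSeq symbols matched 24998 of 28059 genes.

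RPKM are not counts, and only relative depth can be read from them, so limma 3.58.1 (R 4.3.3) was run on log2(RPKM + 0.5), which understates the changes of low genes. The test took the 14342 genes that reached 1 RPKM in 4 or more libraries. A mean for each of 6 groups was fitted with a mean-variance trend and robust variances, and 9 contrasts were tested, 2-sided, with Benjamini-Hochberg adjustment over all genes and a threshold of 0.05. The script was tested on simulated data. Alternatives covered the pseudocount (0.1 and 1), the filter, scaling, the fit, library weights, set 2 libraries with more than 1 RPKM of Xist, and leaving out libraries. Set 2 Cop1 deletion replicates 2 and 3 did not exceed that level of Xist, and all set 2 controls did. Xist and genotype were therefore not balanced in set 2. Leaving out both controls that stand apart was chosen after seeing the data.

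The members and lists were chosen with earlier results of these data known. All members are named. From each list, up to 4 called genes with the smallest adjusted p over both sets are named, 2 in other contrasts, and the nearest gene of each member. Promoters come from RefSeq (GRCm38.p6), not from the build of the reads. Protein sequence was not used here. Python 3.11.15, pandas 2.3.3 and matplotlib 3.10.9 made tables and figures.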

Additional observations from a re-analysis of the deposited data

Results flagged for a closer look

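In groups of 4 libraries, 5 of 40 member and group pairs had a library whose gap to its nearest neighbour took up most of the range (over 0.829 of it, Dixon's limit). Chance gives about 1 in 20 such pairs. Vgf stood at 264 RPKM in set 2 Cop1 deletion replicate 1, against 161 RPKM in the next library of that group. Pcsk1n, the proSAAS precursor, was 497 RPKM in set 1 Etv1/4/5 replicate 3, where the next was 438 RPKM, and 557 RPKM in set 2 Cop1 deletion replicate 2, where the next was 361 RPKM. Ptprn was 672 RPKM in set 2 control replicate 4, against 539 RPKM in the next control, and Ptprn2 was 173 RPKM in set 2 Etv4/5 replicate 1, where the next library held 193 RPKM.

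The effect of the added Etv deletion, relative to Cop1 deletion, differed between the sets for 3 members in limma. The difference, set 1 minus set 2 on the log2 scale, was -0.78 for Chgb (adjusted p = 0.00958), 1.27 for Vgf (adjusted p = 0.0153) and -0.41 for Ptprn (adjusted p = 0.0454). Chgb and Ptprn were lower, and Vgf higher, in Etv1/4/5 than in Cop1 deletion libraries in set 1. The sets differ in the Etv alleles as well as in sample numbers and depth, and these cannot be told apart.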

How the results depend on the processing

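Of 90 pairs of a member and a comparison, 28 were called, and 9 of these were called in every alternative run. They were Chgb after Cop1 deletion (both sets together, set 1 and set 2), in Etv1/4/5 against Cop1 deletion and in the difference of the added Etv effect, Slc30a8 after Cop1 deletion over both sets and in set 1, Vgf in Etv1/4/5 against Cop1 deletion, and Scg5 in Etv4/5 against control. The other 19 calls were lost in at least 1 alternative, and 27 pairs were called in at least 1 alternative only. The sign of a called value turned in 2 cases, Scg2 over both sets (-0.013) and in set 1 (-0.086), both under quantile normalization. The cause of the changed calls was not tested.

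The number of members called over both sets was 7 as reported and 4 under quantile normalization (5 to 8 with 1 library left out). For Cop1 deletion in set 1 it was 5, 3 under quantile normalization and 3 to 5 with 1 library left out. In set 2 it was 4, 7 with library weights, 2 with Xist libraries only, 2 without Cop1 deletion replicates 2 and 3, 7 without both controls that stand apart, and 3 to 7 with 1 library left out. The Xist setting and the setting without replicates 2 and 3 compare the same Cop1 deletion and control libraries. Between the sets it was 0, 2 under quantile normalization, 6 with weights and 0 to 2 with 1 library left out. Etv1/4/5 against Cop1 deletion gave 5, 3 under quantile normalization and 2 to 4 with 1 library left out. Etv4/5 against Cop1 deletion gave 1, 2 with a pseudocount of 1, 2 with equal totals, 3 without Ins1 and Ins2 in the total, 2 without acinar genes too, 3 under quantile normalization, 0 with set 2 alone, 3 with weights, 0 with Xist libraries only and 1 to 3 with 1 library left out. Etv4/5 against control gave 3, 1 under quantile normalization, 1 with set 2 alone, 7 with weights and 2 to 4 with 1 library left out. The difference of the added Etv effect gave 3, 6 with weights and 1 to 4 with 1 library left out.

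Over all genes, calls ranged from 2231 to 6259 around 2877 (both sets), 719 to 5429 around 1195 (set 1), 1329 to 5035 around 2702 (set 2), 217 to 3872 around 406 (between sets), 543 to 3712 around 909 (Etv1/4/5 against Cop1 deletion), 91 to 3022 around 189 (Etv1/4/5 against control), 0 to 3217 around 248 (Etv4/5 against Cop1 deletion), 664 to 4766 around 1253 (Etv4/5 against control) and 300 to 3737 around 582 (added Etv effect), with the highest count under library weights each time. The count of 0 for Etv4/5 against Cop1 deletion came with set 2 fitted alone. No paired analysis was possible because the labels give the libraries no replicate numbers shared between groups. Depth in reads is unknown, so no counting error could be given.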
